A study of Mus musculus with 10 samples.

Results

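The CCN genes and a small set of genes tied to the transcriptional coactivator YAP were examined in liver sinusoidal endothelial cells of mice with and without a deletion of Gata4. The set holds 9 of the 24704 genes measured. 5 of them encode CCN proteins: Ccn1 (Cyr61), Ccn2 (Ctgf), Ccn3 (Nov), Ccn4 (Wisp1) and Ccn5 (Wisp2). The other 4 are Ankrd1, Amotl1, Amotl2 and Ajuba. They were chosen by name, the CCN genes by the Entrez gene number of their probe sets, and all 9 were measured on all 10 arrays.

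The study compared 5 arrays labelled Gata4-LSEC-KO, called knockout here, with 5 arrays of sibling control mice labelled WT. In the knockout mice the iCre transgene of the line C57BL/6N-Tg(Clec4g-icre)1.1Sgoe, driven by sequences of the endothelial lectin gene Clec4g, was combined with floxed Gata4 alleles from STOCK Gata4tm1.1Sad/J. The labels give neither the transgene and flox status of the controls nor age or sex. Each array holds RNA of cells from 3 mice, whose livers were digested with collagenase and whose nonparenchymal cells were sorted with magnetic beads against CD146, an adhesion molecule of endothelium that pericytes and smooth muscle can also carry.

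CCN proteins are secreted into the matrix, where they bind integrins, heparan sulphate proteoglycans and growth factors and alter how cells adhere and respond. Ccn1 and Ccn2 are textbook targets of YAP and its paralogue TAZ, which bind DNA through TEAD factors when the Hippo kinases do not hold them in the cytoplasm. In liver, Ccn2 is best known from fibrosis, where stellate cells and hepatocytes express it, and Ccn1 is also an early response gene of stressed or stretched cells. Angiomotin family proteins, encoded here by Amotl1 and Amotl2, tether YAP at junctions and actin, and Ajuba is a LIM domain protein that restrains the Hippo kinases LATS1 and LATS2.

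The promoters of members are shown for the letters that TEAD factors are known to bind, since YAP and TAZ bind DNA through these factors. The members were chosen by name, and several of them, Ccn1, Ankrd1 and Amotl2, are known as targets or readouts of YAP. The share of their windows that holds these letters is therefore no independent result about the members. RefSeq promoter windows of the mouse build GRCm38.p6, cut to the 250 bases before the start site, were matched for 5 members: Ccn1, Ankrd1, Amotl1, Amotl2 and Ajuba. Ccn2, Ccn3, Ccn4 and Ccn5 were not analysed here. The TEAD letters GGAATG, or CATTCC on the other strand, occurred in 4 of the 5 windows and in 12.6% of 32851 promoter windows of the same length. Capitals mark those letters and, in Ankrd1 alone, the GATA letters AGATAA read on the other strand as TTATCT. The sequences run 5′ to 3′ on the strand of the gene. For Amotl2, whose window lies within the annotated extent of the gene, 30 bases around the match are given.
Ccn1 (chr3:145649986-145650235, minus strand): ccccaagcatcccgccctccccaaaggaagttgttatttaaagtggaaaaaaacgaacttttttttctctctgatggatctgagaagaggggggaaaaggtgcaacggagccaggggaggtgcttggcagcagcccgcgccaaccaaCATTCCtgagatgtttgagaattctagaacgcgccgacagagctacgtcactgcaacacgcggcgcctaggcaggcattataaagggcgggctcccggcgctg
Ankrd1 (chr19:36119845-36120094, minus strand): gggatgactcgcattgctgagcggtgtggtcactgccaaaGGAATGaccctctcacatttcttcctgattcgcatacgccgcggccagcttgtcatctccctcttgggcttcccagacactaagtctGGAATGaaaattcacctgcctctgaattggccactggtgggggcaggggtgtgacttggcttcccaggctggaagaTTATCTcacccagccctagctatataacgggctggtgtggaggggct
Ajuba (chr14:54577662-54577911, minus strand): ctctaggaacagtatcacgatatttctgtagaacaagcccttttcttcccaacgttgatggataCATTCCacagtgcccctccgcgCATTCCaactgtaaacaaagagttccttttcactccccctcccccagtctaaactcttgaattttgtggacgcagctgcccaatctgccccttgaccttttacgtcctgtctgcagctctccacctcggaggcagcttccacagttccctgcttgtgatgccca
Amotl2 (chr9:102717727-102717756, plus strand): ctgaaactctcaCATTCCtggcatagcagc

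In Ccn1 the match lay 103 to 98 bases before the start. Ankrd1 held a pair, 210 to 205 and 123 to 118 bases before it, and Ajuba another, 186 to 181 and 164 to 159 bases before it. In Amotl2 the match lay 65 to 60 bases before the start. The Amotl1 window held none, but it too lies within the annotated extent of the gene. The GATA letters, present in 9.99% of all windows, stood 47 to 42 bases before the start of Ankrd1 and in no other of the 5. None of the matches overlapped another. The CArG box, the site of serum response factor, was found in 0 of the 5 windows and in 1.47% of all. A match is a run of letters and does not show that a factor binds there.

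Values are log2 array values, already normalized together. Each array's median was 3.71, and a fold change of a gene near that level is a ratio of array values, not of RNA amounts. For Gata4 itself the knockout arrays averaged 8.59 ± 0.24 and the controls 8.71 ± 0.15 (SD, 5 arrays each; adjusted p = 0.742 by limma). Where its probes lie relative to the deleted part is not given in the labels, so this value is no check of them. Markers of the labelled cell type were present on all arrays, with means over 10 sinusoidal endothelial markers of 10.51 to 10.97 in the knockout and 11.06 to 11.32 in the controls. The least typical array was control replicate 1: over all genes its correlation with any other array was 0.920 to 0.944, while the other 9 correlated at 0.969 to 0.988. Results that change without it are given both ways.

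No member passed the threshold, an adjusted p of 0.05 by limma with p-values adjusted over all genes. Over all genes 2.14% passed, 1.3% higher and 0.846% lower in the knockout. An unadjusted p under 0.05 was found for 4 of the 9 members, Ccn1, Ccn4, Ankrd1 and Amotl1, and for 13.6% of all genes. The groups did not overlap for 1 of the 9, Ccn4, which was lower. Such separation was found for 4.93% of all genes, 2.55% higher and 2.37% lower. Of the 9 differences, 5 were positive (Ccn1, Ccn2, Ccn3, Ankrd1 and Ajuba) and 4 negative (Ccn4, Ccn5, Amotl1 and Amotl2), and the median was 0.44 beside -0.02 over all genes. Each difference given for a member is knockout minus control in log2 units ± standard error, with its 95% interval, limma's adjusted p and the two-sided exact permutation p of that gene alone. The smallest p that this exact test can give with 5 against 5 arrays is 0.00794.

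**Figure D1:**
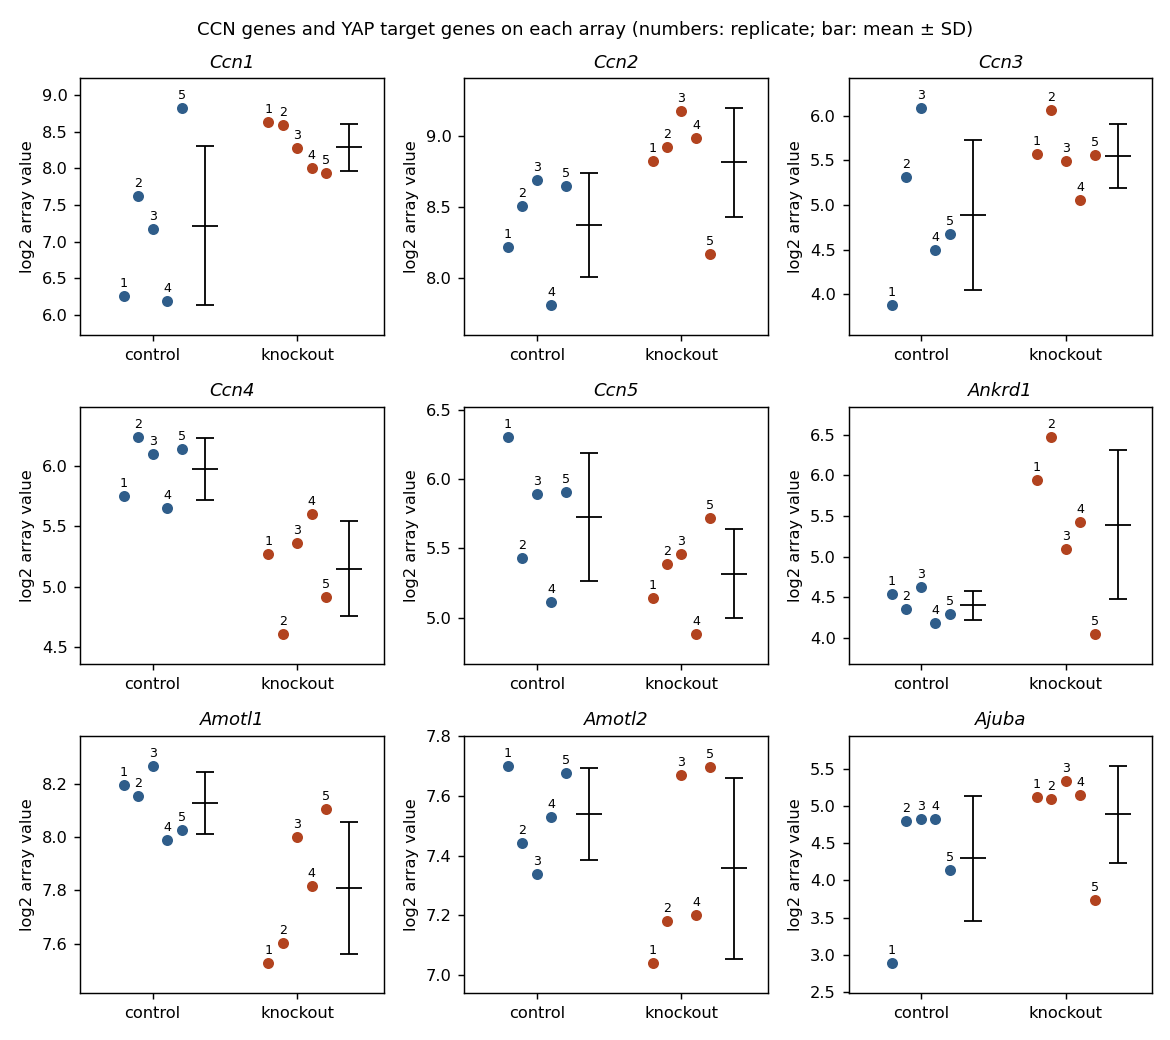
The log2 array value (vertical axes, each with its own range) of the 9 members on each of the 5 control and 5 knockout arrays (horizontal axis), with replicate numbers beside the points and the mean ± SD as a bar to their right. Ccn4 is the member whose groups do not overlap (highest knockout value 5.60, lowest control value 5.65), and Ccn1 spreads from 6.19 to 8.82 among the controls.

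Ccn1, the early response member of the family, read 8.63, 8.59, 8.28, 8.004 and 7.94 in knockout replicates 1 to 5. The controls, in the same order, read 6.26, 7.62, 7.17, 6.19 and 8.82. Of the controls, 4 lay below every knockout array, while control replicate 5 lay above all of them, so the groups overlapped. The control values spanned a 6.19-fold range and had an SD of 1.08, against 0.32 in the knockout. Only 2.1% of all genes had a larger SD within the groups. The difference was 1.07 ± 0.43 (interval 0.13 to 2.02), or 2.11-fold, with an adjusted p of 0.289 by limma and an exact p of 0.0794. Without control replicate 5 the difference was 1.48 ± 0.30 with an adjusted p of 0.0463 by limma. It was 0.84 ± 0.41 without control replicate 1 and 0.82 ± 0.41 without control replicate 4, with adjusted p-values by limma of 0.366 and 0.449.

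Genes of the response to tissue digestion were read beside Ccn1. Of 14 such genes 1 passed, the nuclear receptor gene Nr4a1, which rose by 1.42 ± 0.26 (adjusted p = 0.0156 by limma). All 14 differences were positive, with a median of 0.42. An unadjusted p under 0.05 by limma was found for 3 of them, beside 13.6% of all genes. The mean of the 14 genes ran from 7.76 to 8.48 in the knockout and from 7.26 to 8.30 in the controls. Its order within each group resembled that of Ccn1, with Spearman's rho of 0.9 among the 5 knockout and 0.9 among the 5 control arrays. Over all 10 arrays rho was 0.66. As deviations from the group means, r was 0.61, and 0.57 without control replicate 1. This relation is 1 of 99 of a member and a marker list computed. With platelet markers, r of Ccn1 on the same measure was -0.01, and 0.61 without control replicate 1. The highest control mean of the 14 digestion genes was that of replicate 2, not of replicate 5. The part of these genes in the Ccn1 values was not tested.

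Ccn2, the connective tissue growth factor, read 8.82, 8.92, 9.17, 8.99 and 8.17 in knockout replicates 1 to 5. It read 8.22, 8.51, 8.69, 7.81 and 8.65 in control replicates 1 to 5. Thus 4 of the 5 knockout arrays lay above every control, and knockout replicate 5 lay below 4 of the controls. The difference of 0.44 ± 0.21 (interval -0.03 to 0.91), 1.36-fold, had an adjusted p of 0.403 by limma and an exact p of 0.103.

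Ccn3, the nephroblastoma overexpressed gene and a CCN protein known to bind Notch1, read 5.57, 6.06, 5.49, 5.06 and 5.56 in the knockout arrays. The controls read 3.87, 5.31, 6.09, 4.49 and 4.68. The knockout values fell within the control range, which was wide: control replicate 1 was the lowest of all arrays and control replicate 3 the highest. The difference was 0.66 ± 0.35 (interval -0.11 to 1.43), with an adjusted p of 0.465 by limma and an exact p of 0.143. Without control replicate 1 it was 0.40, and without control replicate 3 it was 0.96, neither past the threshold.

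Ccn2 and Ccn3 were read beside markers of smooth muscle and portal fibroblasts, cells known to express CCN genes. Of 8 such markers, 0 passed by limma and 3 had an unadjusted p under 0.05. Their mean ran from 6.26 to 7.38 in the knockout and from 5.87 to 6.85 in the controls, and none was below the array median in the controls. As deviations from the group means over 10 arrays, which share preparation and normalization, that mean correlated with Ccn3 at r = 0.80 and with Ccn2 at r = 0.68, among 99 relations of a member and a marker list computed. Without control replicate 1 the values were 0.76 and 0.68. Spearman's rho of Ccn3 with that mean was 1.000 among the 5 control and 0.5 among the 5 knockout arrays, and the neutrophil marker mean also had rho of 1.000 with Ccn3 in the controls and 0.000 in the knockout. For 14 stellate cell markers, 0 of which passed by limma with 5 at an unadjusted p under 0.05, r was 0.47 for Ccn3 and 0.00 for Ccn2, and 0.04 and -0.17 without control replicate 1. Other lists had values of similar size for Ccn2. Without control replicate 1, its r was 0.71 with platelet markers and -0.64 with Kupffer cell and macrophage markers. Over all 10 arrays these were 0.33 and -0.25. The part of these cells in either gene was not tested, and in bulk samples fewer cells of a type and less RNA per cell cannot be told apart.

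Ccn4, the Wnt-inducible member, was the lower one with separate groups. Knockout replicates 1 to 5 read 5.27, 4.61, 5.36, 5.60 and 4.91. Control replicates 1 to 5 read 5.75, 6.24, 6.10, 5.65 and 6.13. Every knockout array lay below every control, the closest pair being knockout replicate 4 and control replicate 4. The difference was -0.83 ± 0.19 (interval -1.25 to -0.41), 1.77-fold lower, with an adjusted p of 0.0526 by limma and the smallest exact p possible, 0.00794. It missed the threshold narrowly and lay on either side of it with the setting. Its adjusted p by limma was 0.0381 without control replicate 1 and 0.0408 without knockout replicate 4. When each array was left out in turn, it reached at most 0.131.

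Ccn4 was lower alongside markers of the sinusoidal endothelium itself. Of the 10 markers 5 passed, all lower: Clec4g, Gpr182, Dnase1l3, Mrc1 and F8. With each array left out in turn, Clec4g passed in 5 of 10 sets and F8 in 1, with the other 3 between. The remaining 5 markers did not pass, and Lyve1 was the only 1 of the 10 with a positive difference (0.29 ± 0.27). The ranges of the mean of the 10 markers, given above, did not overlap either. Over deviations from the group means the correlation of Ccn4 with that mean was 0.57, and 0.54 without control replicate 1. Spearman's rho was 0.8 among the 5 knockout and 0.3 among the 5 control arrays. Other marker lists had values as large: r was 0.54 with hepatocyte markers. Without control replicate 1, r was -0.88 with Kupffer cell and macrophage, -0.77 with stellate cell and 0.75 with platelet markers. Over all 10 arrays these were -0.294, -0.325 and 0.269. Of 8 markers shared by endothelia of many organs 0 passed by limma, with 1 at an unadjusted p under 0.05. The part of the marker change in the Ccn4 values was not tested.

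Ccn5, which differs from the other CCN proteins in lacking the C-terminal cystine knot domain, read 5.14, 5.38, 5.46, 4.88 and 5.72 in the knockout arrays. The controls read 6.30, 5.43, 5.89, 5.11 and 5.91. All 5 knockout values lay below the control median, and the groups overlapped. The difference was -0.41 ± 0.22 (interval -0.90 to 0.08), with an adjusted p of 0.478 by limma and an exact p of 0.151. Control replicate 1 was the highest array, and without it the difference was -0.27 with an adjusted p of 0.607 by limma.

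**Figure D2:**
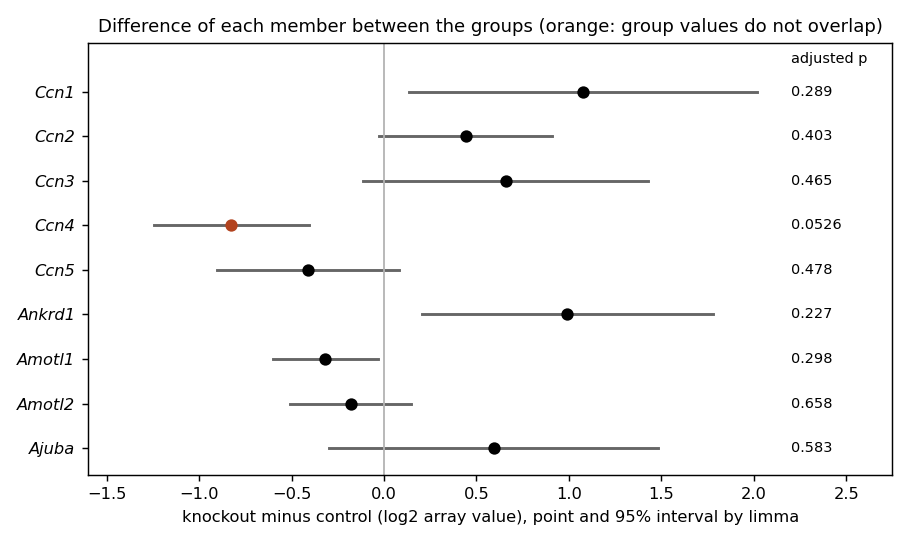
The knockout minus control difference (horizontal axis, log2 array value) of each member (vertical axis), as a point with its 95% interval by limma and the adjusted p at the right. The intervals of Ccn1, Ccn4, Ankrd1 and Amotl1 lie to one side of 0, and the smallest adjusted p, 0.0526 for Ccn4, is above the threshold.

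Ankrd1 encodes a nuclear ankyrin repeat protein known from stretched muscle and widely used as a readout of YAP. It read 5.94, 6.47, 5.09, 5.42 and 4.04 in knockout replicates 1 to 5. The controls lay close together at 4.54, 4.36, 4.63, 4.18 and 4.29. Thus 4 knockout arrays lay above every control, and knockout replicate 5 below every control. The knockout arrays spanned a 5.38-fold range and the controls a 1.36-fold one. The difference was 0.99 ± 0.36 (interval 0.21 to 1.78), 1.99-fold, with an adjusted p of 0.227 by limma and an exact p of 0.0556. Without knockout replicate 5 it was 1.33 ± 0.25 with an adjusted p of 0.0213 by limma. Without knockout replicate 2 it was 0.72 ± 0.31 with an adjusted p of 0.408 by limma.

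The spread of Ankrd1 ran alongside that of bile duct markers. Of 6 measured cholangiocyte markers 1 passed, Tm4sf4, which was higher in the knockout and passed in 5 of 10 sets with an array left out. All 6 differences were positive, with a median of 1.43. Each of the 6 had an unadjusted p under 0.05 by limma, beside 13.6% of all genes. The mean of the 6 was 6.29, 6.69, 4.86, 5.55 and 4.58 in knockout replicates 1 to 5 and 3.49 to 4.66 in the controls. Krt19 and Cftr were below the array median in the controls on average. The order of the 5 knockout arrays was the same for Ankrd1 and the marker mean (Spearman's rho 1.000), while among the 5 controls rho was 0.200. Over deviations from the group means r was 0.83, and 0.86 without control replicate 1. Among the 99 relations of a member and a marker list computed, others of Ankrd1 were also large. On the same measure r was -0.75 with the endothelial markers of many organs and 0.66 with smooth muscle and portal fibroblast markers. Without control replicate 1 these were -0.77 and 0.76. With the mean of the tissue digestion genes, rho was 0.9 in the knockout and 0.2 in the controls. The part of bile duct cells in the Ankrd1 values was not tested.

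Amotl1, an angiomotin family member of endothelial junctions, read 7.53, 7.60, 8.0, 7.82 and 8.10 in the knockout arrays. The controls read 8.20, 8.16, 8.27, 7.99 and 8.03. Of the knockout arrays, 3 lay below every control, and replicates 3 and 5 lay among them. The difference was -0.32 ± 0.13 (interval -0.60 to -0.04), 1.25-fold lower, with an adjusted p of 0.298 by limma and an exact p of 0.0397.

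Amotl2, a related scaffold that is itself a YAP target, read 7.04, 7.18, 7.67, 7.20 and 7.70 in the knockout arrays. The controls read 7.70, 7.44, 7.34, 7.53 and 7.68. The same 3 knockout arrays as for Amotl1, replicates 1, 2 and 4, lay below every control. The difference was -0.18 ± 0.15 (interval -0.51 to 0.15), with an adjusted p of 0.658 by limma and an exact p of 0.246. Without knockout replicate 1 it was -0.10 with an adjusted p of 0.843 by limma.

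Both angiomotin genes were lowest on the arrays where the bile duct marker mean was highest. Over deviations from the group means that mean correlated with Amotl1 at r = -0.71 and with Amotl2 at r = -0.84, and without control replicate 1 the values were -0.71 and -0.83. The mean of 8 markers shared by all endothelia correlated with Amotl1 at r = 0.75 and with Amotl2 at r = 0.56 (0.86 and 0.72 without control replicate 1). Within the groups the relations differed. Spearman's rho with the endothelial mean was 0.9 for both genes in the knockout, but -0.5 for Amotl1 and -0.6 for Amotl2 in the controls. With the bile duct mean it was -0.9 for both in the knockout. In the controls that rho was 0.2 for Amotl1 and -0.8 for Amotl2. That endothelial mean ran from 10.13 to 10.63 in the knockout and from 10.28 to 10.53 in the controls, lowest in knockout replicates 1 and 2. These relations describe arrays that share preparation and normalization, and the part of other cells was not tested.

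**Figure D3:**
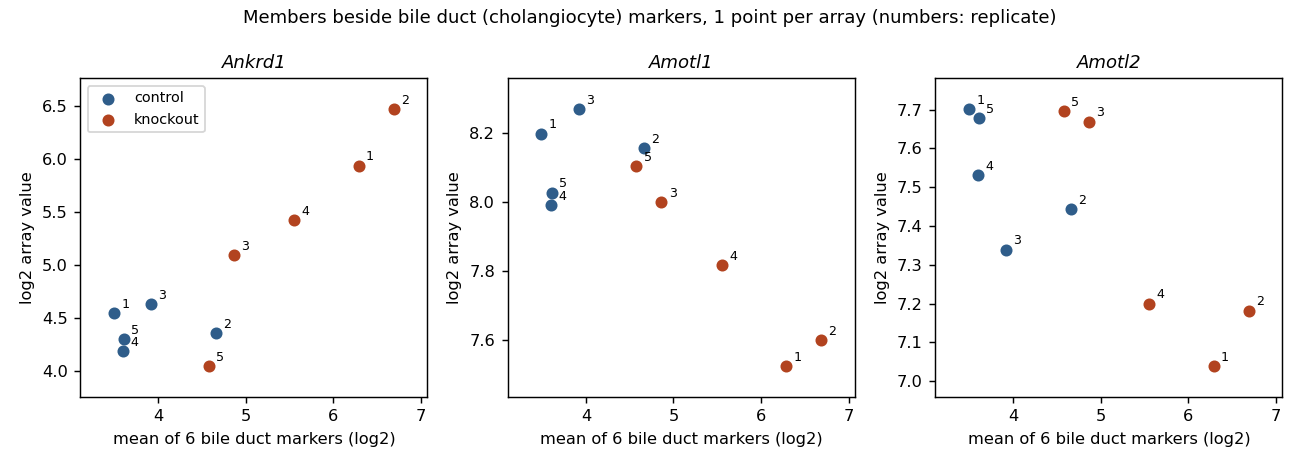
The log2 array value of Ankrd1, Amotl1 and Amotl2 (vertical axes) against the mean log2 value of 6 bile duct markers (horizontal axes), with 1 point per array and its replicate number. Ankrd1 is highest, and both angiomotin genes are lowest, on knockout replicates 1, 2 and 4, where the marker mean is 5.55 to 6.69.

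Ajuba read 5.12, 5.10, 5.34, 5.15 and 3.74 in the knockout arrays. The controls read 2.89, 4.80, 4.83, 4.82 and 4.14. The highest 4 knockout arrays lay above every control, and knockout replicate 5 lay far below the other knockout arrays. Control replicate 1 was the lowest control and lay below the array median of 3.71. The difference was 0.59 ± 0.41 (interval -0.29 to 1.48), with an adjusted p of 0.583 by limma and an exact p of 0.254. It was 0.88 without knockout replicate 5 and 0.24 without control replicate 1, with adjusted p-values by limma of 0.303 and 0.786. Knockout replicate 5 was the lowest knockout array for Ccn1, Ccn2, Ankrd1 and Ajuba and the highest for Ccn5, Amotl1 and Amotl2.

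The members did not all move together across the arrays. Over deviations from the group means, Ccn1 and Ccn2 correlated at r = 0.59 and Amotl1 with Amotl2 at r = 0.68. Ankrd1, by contrast, ran against Amotl1 (r = -0.73) and Amotl2 (r = -0.75). Without control replicate 1 these 4 values were 0.59, 0.67, -0.76 and -0.80. Ccn5 ran against Ajuba at r = -0.74, and at -0.57 without control replicate 1. The pairs named were picked from the 36 pairs of members for their size and are given as a description.

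The genes around the members, in 7 lists of the pathway, were mostly not past the threshold. Of 87 measured genes that are not members, 6 passed by limma, all higher, beside 1.3% of all genes, and 81 did not. Their median difference was 0.22 beside -0.02 over all genes. The count of 6 was 2 without knockout replicate 2 and 3 without control replicate 2, 3, 4 or 5, and Itga6 and Itgam passed whichever array was left out. In the lists below, 13.6% of all genes had an unadjusted p under 0.05 and 4.93% had groups that did not overlap.

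The coactivators themselves did not pass the threshold. Yap1, named as the coactivator itself and not by its p, read 7.82 ± 0.15 in the knockout and 7.91 ± 0.19 in the controls (SD, n = 5). Wwtr1, which encodes TAZ, read 7.91 ± 0.14 and 7.64 ± 0.22 (SD, n = 5), a difference of 0.27 ± 0.12 with an adjusted p of 0.378 by limma. Of the 9 genes for YAP, TAZ and their TEAD and VGLL partners, 0 passed by limma and 0 had an unadjusted p under 0.05. Tead2, a DNA-binding partner, was at 0.19 ± 0.10. The median of the list was 0.00.

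Among 21 Hippo kinases and scaffolds, Map4k4, a kinase that can activate LATS kinases, rose by 0.54 ± 0.12 (1.45-fold, adjusted p = 0.0443 by limma). It read 8.24 to 8.76 in the knockout and 7.80 to 8.18 in the controls. The call of Map4k4 stood in 1 of the 10 sets with an array left out, that without knockout replicate 1, and its adjusted p by limma was otherwise up to 0.108. The other 20 did not pass, and the median of the list was 0.07. Of the LATS kinases, Lats1 was at -0.07 ± 0.18 and Lats2 at -0.15 ± 0.13, both named for their place next to YAP and not by their p. Of 12 partners of angiomotin and of LIM proteins, 0 passed by limma and 3 had an unadjusted p under 0.05. Among these 3 were the focal adhesion protein Zyx (0.30 ± 0.10, adjusted p = 0.179 by limma) and the polarity scaffold Patj (0.54 ± 0.19, adjusted p = 0.214 by limma). Patj was above the array median on 5 of the 10 arrays, and its control mean of 3.54 was below it.

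Of 18 other YAP target genes, 0 passed by limma and 8 had an unadjusted p under 0.05. Differences were positive for 13 of them, and the median was 0.22. Tgfb2, a transforming growth factor ligand, read 4.59 to 5.72 in the knockout and 3.92 to 4.55 in the controls (0.83 ± 0.21, adjusted p = 0.0656 by limma). Among the sets with an array left out, Tgfb2 passed without control replicate 1 and without knockout replicate 5. Myof, the membrane repair protein myoferlin, read 5.75 to 6.47 and 3.92 to 5.60 (1.10 ± 0.28, adjusted p = 0.079 by limma) and passed, among those sets, without control replicate 1. The groups did not overlap for 5 of the 18, Tgfb2, Myof, Arhgef17 and F3 higher in the knockout and Nuak2 lower. The last 3 of these names were chosen after their values were seen.

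Receptors that CCN proteins bind included the pathway genes with the smallest p-values, Itga6 and Itgam. Of 13 measured, 2 rose and 11 did not pass, 9 had an unadjusted p under 0.05, and the median was 0.56. Itga6, the integrin chain through which CCN1 and CCN2 act on fibroblasts and which also binds laminin, read 8.37 to 9.14 in the knockout and 7.35 to 7.85 in the controls. It rose 2.24-fold (1.16 ± 0.16, adjusted p = 0.00272 by limma). Itgam, the leukocyte integrin chain, read 4.73 to 5.43 and 3.57 to 4.52, a rise of 1.13 ± 0.19 (adjusted p = 0.00966 by limma). Groups did not overlap for 8 of the 13, of which 7 were higher. The lower one was Lrp6, a Wnt coreceptor, at -0.46 ± 0.11 (adjusted p = 0.0642 by limma), chosen after its value was seen.

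Neutrophil markers stood beside Itgam. Of 8 such markers 5 rose: S100a8, S100a9, Ngp, Retnlg and Mmp8. The first 3 passed whichever array was left out, Retnlg in 5 of 10 sets and Mmp8 in 2. The list mean ran from 4.17 to 6.23 in the knockout and from 2.82 to 3.52 in the controls, where 6 of the 8 were below the array median on average. Of 7 measured markers of Kupffer cells and macrophages, 0 passed by limma and 0 had an unadjusted p under 0.05. The part of leukocytes in the Itgam value was not tested.

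Genes known to respond to transforming growth factor beta or to serum response factor, both regulators of Ccn1 and Ccn2, had mostly positive differences. Of 7 TGF-beta response genes 2 rose by limma, Skil (0.84 ± 0.18, adjusted p = 0.0327), a feedback repressor, and Tgfb1i1 (0.48 ± 0.10, adjusted p = 0.0333), a focal adhesion protein. All 7 differences were positive, with a median of 0.35. With each array left out in turn, Skil and Tgfb1i1 passed in 2 of 10 sets each, with adjusted p-values by limma up to 0.0852 and 0.0954. Of 12 genes of serum response factor and its actin-regulated cofactors 1 rose, Flna, the actin crosslinker filamin A, at 1.01 ± 0.19 (adjusted p = 0.0171 by limma). Flna read 8.28 to 8.74 in the knockout and 6.93 to 7.99 in the controls. Its call ended without knockout replicate 2 or control replicate 5, with adjusted p-values by limma of 0.0551 and 0.0529. Of the 12 differences 11 were positive, and the list median was 0.34.

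**Figure D4:**
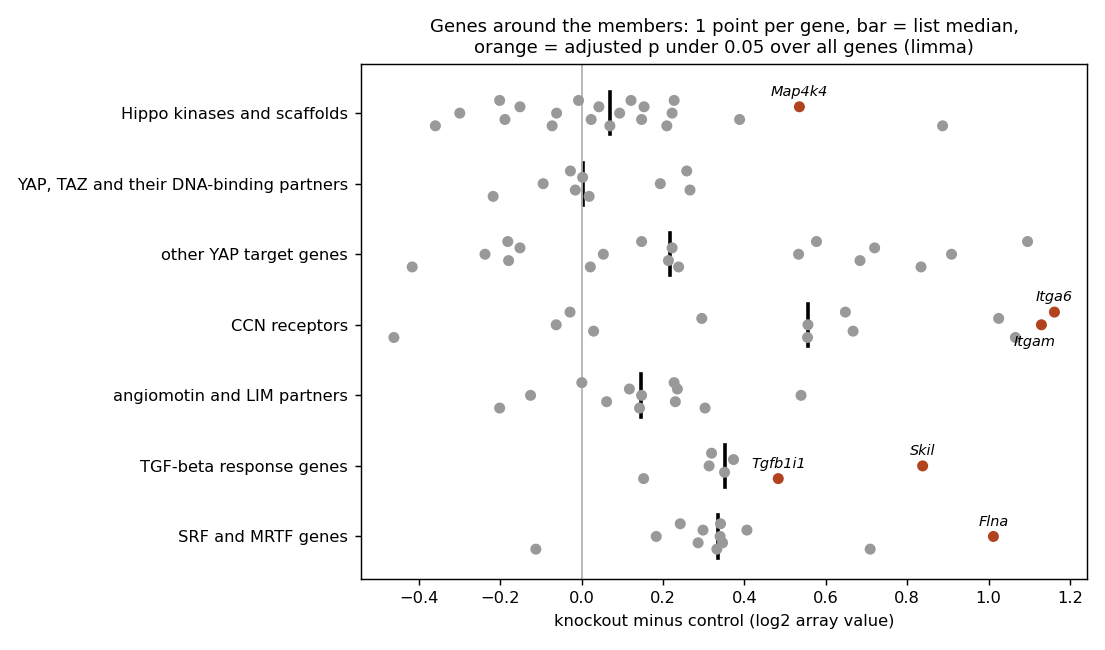
The knockout minus control difference (horizontal axis, log2 array value) of the genes of 7 pathway lists (vertical axis), with 1 point per gene and a bar at each list median. The 6 genes past the threshold are named, and the medians run from 0.00 for YAP, TAZ and partners to 0.56 for CCN receptors.

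Finally, genes with the array pattern most like that of 4 members were sought among 11458 genes above the array median on average, by Pearson's r over 10 arrays. These 4 were Ccn1, Ccn2 and the 2 members with the smallest p, Ccn4 and Ankrd1. Most like Ccn1 were the spindle checkpoint gene Mad2l1 (r = 0.89), Fiz1 (0.89) and the mitochondrial chaperone gene Hspd1 (0.88). For Ccn2 the nearest were Ewsr1 (0.88), the kinetochore gene Spc25 (0.87) and the mitotic kinase gene Pbk (0.86). Ccn4 had the nearest genes Ttll7 (0.95), Fam124a (0.94) and Fam174b (0.93). Of these, Fam124a (-0.99 ± 0.14, adjusted p = 0.00317 by limma) and Fam174b (-1.09 ± 0.18, adjusted p = 0.00874 by limma) fell in the knockout. Nearest to Ankrd1 were the ciliary transport gene Ift57 (0.97), Baiap2l1 (0.95) and Glipr1 (0.95). The group difference is part of each r: over deviations from the group means the 12 values ran from 0.77 for Fam174b with Ccn4 to 0.96 for Ift57 with Ankrd1.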

How the data were processed

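Per the labels, biotin-labelled RNA was hybridised to 1-colour Affymetrix arrays. The authors deposited log2 values, and RMA, a method that corrects background, quantile-normalizes and summarizes probe sets, is the tool named by the submitters' processing notes, without a version. The log2 scale was judged from the range, 0.94 to 13.36. Probe positions, array design and the genome build behind the annotation were not given in the sources used here. The sorted values of the arrays differed by at most 0.00186, so nothing was normalized again.

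Of 25428 probe sets, 24705 had 1 symbol in the platform annotation and 723 none. 1 symbol had several probe sets and was represented by the brighter, leaving 24704 genes. 8 list entries were not matched. Differences were tested with limma 3.58.1 (R 4.3.3; lmFit, eBayes, no covariate, no filter), Benjamini-Hochberg adjusted over all genes, two-sided. The procedure was tested on simulated data. The only precision limit stated is the number of arrays, 5 per group, and each p-value rests on the spread of arrays that each pool 3 mice.

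Members and lists were chosen with earlier results of these data known. All 9 members are named. From each pathway list, every gene past the threshold is named, or otherwise up to 2 with the smallest p, and for Ccn1, Ccn2 and the 2 members with the smallest p the 3 genes most alike. Alternatives were a replicate block, a filter on dim genes, a variance trend with robust estimation, array weights, log2(value + 16) and each array left out. Tissue digestion took 25 minutes at 38 °C in all samples, per the labels.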

Additional observations from a re-analysis of the deposited data

Results flagged for a closer look

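Ajuba in knockout replicate 5, at 3.74, lay far below the other knockout arrays, which read 5.10 to 5.34. The gap was 0.848 of the range of the group, above the critical value of 0.71 for 5 samples. Such gaps were looked for in 30 groups of arrays, the members and the 6 pathway genes past the threshold in each group, and 1 was found. Chance gives about 1 in 20 groups.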

How the results depend on the processing

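Over 15 alternatives the differences of the 9 members kept their sign in all 135 values, and 128 stayed on the same side of the threshold. The 7 others moved past it. Ccn4 was at -0.83 (adjusted p = 0.0351 by limma) with the filter on dim genes and at -0.82 (0.0288) with array weights. Ankrd1 was at 1.17 (0.0479) with array weights. Members past the threshold, 0 in the main comparison, were then 1 higher and 1 lower with array weights and 1 lower with the filter on dim genes. With each array left out in turn, Ccn1 ran from 0.82 to 1.48, Ccn4 from -0.94 to -0.69 and Ankrd1 from 0.72 to 1.33, and the counts of members ran from 0 to 1 in each direction. Pathway genes higher, 6 in the main comparison, were 14 with array weights and 2 to 8 with each array left out. Pathway genes lower, 0 in the main comparison, were 1 (Lrp6) with the filter on dim genes, with the variance trend and with array weights, 2 (Lrp6 and Nuak2) with log2(value + 16), and 0 to 1 with each array left out. Tgfb2 also passed with the filter on dim genes and with array weights, and Myof with array weights. With log2(value + 16), Ccn3 was at 0.42 and Ajuba at 0.34, and the calls of Gpm6a, Krt8, Mmp8, Retnlg and Tat ended. The cause was not tested.

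The replicate number as a block left 0 members past the threshold by limma (Ccn4 at -0.83 with an adjusted p of 0.178, and 4 pathway genes higher), and over all genes 275 passed against 529. The block ended the calls of Map4k4, Skil and Tgfb1i1, of Nr4a1, and of the markers Clec4g, Gpr182, Dnase1l3, Mrc1, F8, Wt1, Gpm6a, Krt8, Retnlg and Tat, and Tgfb2 passed with it. Arrays of the same number did not deviate together, with correlations of -0.05, 0.04, 0.01, 0.02 and -0.17, so the numbers were not taken to pair the samples. Array weights gave control replicate 1 a weight of 0.203, the lowest, and 1070 genes passed. The count over all genes ran from 287, with control replicate 5 left out, to 737, with control replicate 1 left out.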

Other observations

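Ccn6, the remaining CCN gene, is not among the members and was chosen after its values were seen. It read 2.70 to 3.13 in the knockout and 3.17 to 3.94 in the controls. The groups did not overlap, but both means lay below the array median, and the difference of -0.36 ± 0.16 had an adjusted p of 0.356 by limma.

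Markers of mesothelium, another cell type of the liver that expresses CCN genes, were also measured. Of 6 markers 3 rose, Wt1, Gpm6a and Krt8, which passed in 8, 2 and 3 of 10 sets with an array left out. All 3 calls ended with the replicate number as a block, and those of Gpm6a and Krt8 also with log2(value + 16). Krt8 is not particular to mesothelium. Its knockout values were highest on replicates 1, 2 and 4 (7.39, 7.77 and 6.99), as was the bile duct marker mean. The other 3 markers did not pass: Upk1b was at 0.31 ± 0.26, Msln at 0.05 ± 0.27 and Upk3b, which was lower, at -0.26 ± 0.24. For the 6 markers the list mean ran from 5.46 to 5.86 in the knockout and from 5.00 to 5.30 in the controls. Of 6 platelet markers 0 passed by limma, with 1 at an unadjusted p under 0.05. Of 8 hepatocyte markers Tat rose and Cyp2e1 fell, and each call ended with some arrays left out.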
